A study of Mus musculus with 9 samples.

Results

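Interferon response genes were followed in sorted mouse marrow cells of the Lin-Sca1+cKit+ (LSK) phenotype, among which are the blood stem cells and multipotent progenitors. The gene list had 37 members, and each was read from its brightest single-gene probe set, the one with the highest mean over the 9 arrays. Such a probe set was found for 35 members of 18193 genes in all, and not for Isg15 or Ifi44. Of the 35, 32 lay above a filter on low values and were tested among 12398 genes. The 3 below the filter were Oasl1, Mx1 and Mx2. Arrays came from 3 groups of 3. The control group held LSK cells of C57BL/6 hosts reconstituted with wild type LSK cells. The GFP-negative and GFP-positive groups held the LSK cells without and with the GFP marker from C57BL/6 mice that had received cells transduced with dnMPL by a retroviral vector. Donor and host were of the same strain, hosts were irradiated with 10 Gy, and all cells were sorted 8 weeks after transplantation. The protocols describe donor marrow that was cultured with cytokines and transduced before transfer. Whether the control cells were transduced is not given in the sources used here. Marrow of 2 to 5 mice was combined for every sample, and every sample was read on its own array. The promoter driving dnMPL, the vector of the control cells, if any, the age of the mice, and whether GFP-negative and GFP-positive samples came from the same mice are not given in the sources used here. Nothing in the labels says that pools of a group were prepared separately, so p-values measure the spread between these samples, which may in part be technical.

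Interferons are cytokines released on viral infection and inflammation. Type I interferons bind the receptor chains Ifnar1 and Ifnar2, whose kinases Jak1 and Tyk2 phosphorylate Stat2 among other factors. Stat2 joins Irf9 in the complex ISGF3, which binds the interferon-stimulated response element (ISRE) in promoters of antiviral genes. Interferon gamma acts through Ifngr1 and Ifngr2 on genes with a gamma-activated site (GAS), and switches on immunity-related GTPases, guanylate-binding proteins and antigen presentation. Hematopoietic stem cells respond to interferons by leaving quiescence, and they also hold a constant low level of several of these genes.

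Levels below are log2 RMA values, in which an increase of 1 is a doubling of the array signal, and differences are between group means of these values, with a standard error (SE) from limma. Levels of different genes were not compared, since probe sets differ in brightness. The arrays correlated with each other at 0.797 to 0.957 over the genes tested. Control 3 and GFP-positive 2 stood apart. Their array weights were 0.365 and 0.369 against 0.809 to 2.38 on the other arrays, and Gapdh read at its 3′ end exceeded Gapdh read at its 5′ end by 3.87 and 3.22, against 2.47 to 2.89 elsewhere. Of the genes that define the gate or early progenitors, Kit stood at 6.38 to 8.73 (lowest on GFP-positive 2), Cd34 at 9.31 to 10.49 and Flt3 at 8.67 to 9.28. Of the other genes on the same list of stem and progenitor markers, Procr was at 7.57 to 8.69 on controls and 5.43 to 7.05 on the dnMPL arrays, and Hlf at 9.21 to 9.95 on controls and 5.96 to 8.77 on GFP-positive arrays. Mecom was at 7.35 to 7.87 on controls and 5.73 to 7.33 on GFP-positive arrays. The 6 tested genes of that list had a median difference from control of -0.91 in GFP-positive and -0.32 in GFP-negative cells, and none passed limma (smallest adjusted p = 0.141, with the fractions taken jointly). The level of Ly6a, the gene of the Sca-1 gate, was not analysed here. The summed level of 11 granulocyte markers, all above the filter, was 12.41 to 14.25 on controls, 14.12 to 15.35 on GFP-negative and 14.79 to 15.70 on GFP-positive arrays, and that of the erythroid markers was 7.53 to 8.5, 9.86 to 10.17 and 10.3 to 10.39. That of the monocyte and macrophage markers was 9.66 to 11.31, 10.69 to 12.09 and 11.41 to 12.97, that of the megakaryocyte markers 8.71 to 9.78, 8.32 to 8.57 and 8.05 to 8.54, and that of the stem and progenitor markers 11.44 to 11.73, 11.12 to 11.33 and 10.98 to 11.47. The summed level of 7 plasmacytoid dendritic cell markers was 8.06 to 8.96, 8.18 to 8.79 and 8.51 to 8.74. That of the dendritic and MHC class II markers was 9.11 to 10.39, 9.85 to 10.65 and 10.04 to 10.77. All 6 tested genes of the latter list were higher than control in GFP-positive and GFP-negative cells (medians 0.46 and 0.50), and 0 passed limma. B cell markers summed to 7.22 to 10.16, 8.46 to 9.70 and 9.43 to 10.66. The part of these cells in the results that follow was not tested.

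The promoters of the members carried the motif that ISGF3 reads far more often than promoters in general. RefSeq promoter windows (GRCm38.p6, 250 bases before to 50 after a gene's start) were matched for 29 members, in 35 windows. The ISRE core, GAAA followed by any 2 bases and GAAA again, searched on both strands with overlapping matches kept, was in 15 of the 35 windows (42.9%) and in 3.44% of all 32851 windows. The palindromic GAS core TTCNNNGAA was in 8 of 35 (22.9%) and in 8.3% of all. Both shares describe the gene list, not the arrays. The 200 bases before the start are shown for 4 members, with the ISRE core in capitals in either orientation. Ifit1 is the textbook case with a pair of cores, and Gbp2, Rsad2 and B2m are described below among the members with the smallest p or with groups that did not overlap.
Ifit1, chr19:34640689-34640888, plus strand: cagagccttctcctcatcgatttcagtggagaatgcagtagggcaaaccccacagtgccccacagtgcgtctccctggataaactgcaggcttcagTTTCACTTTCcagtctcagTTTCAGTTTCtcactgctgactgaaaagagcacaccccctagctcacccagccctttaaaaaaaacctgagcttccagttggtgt
Gbp2, chr3:142620463-142620662, plus strand: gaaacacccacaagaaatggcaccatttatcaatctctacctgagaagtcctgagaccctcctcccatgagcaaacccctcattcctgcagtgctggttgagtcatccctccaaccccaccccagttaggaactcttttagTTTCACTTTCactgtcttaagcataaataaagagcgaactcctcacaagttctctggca
Rsad2, chr12:26456453-26456652, minus strand: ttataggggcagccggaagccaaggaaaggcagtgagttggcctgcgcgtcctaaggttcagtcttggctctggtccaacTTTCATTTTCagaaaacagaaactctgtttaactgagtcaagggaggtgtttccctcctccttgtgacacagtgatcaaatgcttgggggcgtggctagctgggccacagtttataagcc
B2m, chr2:122147487-122147686, plus strand: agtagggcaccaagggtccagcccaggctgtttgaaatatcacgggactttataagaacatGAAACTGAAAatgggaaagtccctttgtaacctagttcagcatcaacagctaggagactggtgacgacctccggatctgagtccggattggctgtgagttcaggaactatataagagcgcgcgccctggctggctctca

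By brightest probe sets and equally weighted arrays, the interferon response genes were about evenly split between higher and lower levels in either dnMPL fraction. In GFP-positive cells against control 15 members were higher and 17 lower, with a median difference of -0.098 beside -0.028 for all genes tested. Array weights or another choice of probe set lowered this count of higher members to 10, as given below. In GFP-negative cells against control 16 were higher and 16 lower, with a median of 0.0032 beside -0.038, and between GFP-positive and GFP-negative cells 19 were higher and 13 lower, with a median of 0.062 beside 0.015. Of all genes, 52.8% were lower in the first comparison, 53.5% in the second and 48.2% in the third. The first and the second of these comparisons share their control arrays. With both fractions set jointly against control, 14 members were higher and 18 lower, with a median of -0.024 beside -0.033, and 53.6% of all genes were lower. In bulk samples such as these, fewer cells of a type and less RNA per cell cannot be told apart.

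None of the 32 members passed limma at an adjusted p under 0.05 in any of the 4 comparisons, and 0 of 12398 genes (0.0%) passed in each of them. At an unadjusted limma p under 0.05, 2 members were lower in GFP-positive cells than in control, where 6.49% of all genes passed in either direction and 3.19% were lower. In GFP-negative cells against control 0 members passed this p (5.57% of all genes did). Between the dnMPL fractions 1 member was higher in GFP-positive cells (2.55% of all genes in either direction, 1.28% higher), and with the fractions taken jointly 1 was lower than control (7.25%, 3.58% lower). Groups did not overlap for 2 members, both lower, in GFP-positive cells against control (8.61% of all genes, 4.26% lower). They did not overlap for 3 members, all lower, in GFP-negative cells against control (11.4%, 6.47% lower) and for 2 members, both higher, between GFP-positive and GFP-negative cells (6.4%, 3.96% higher). With 32 members tested, these are counts of 0 to 3 genes. Absence of a call does not show equal levels. The 95% interval of the difference lay wholly between -1 and 1 for 8 of the 32 members in GFP-positive cells against control (25.0%, against 34.5% of all genes), and likewise for 8 in each of the other pairwise comparisons. For the remaining 24 a doubling or a halving of the signal lay within the interval in at least 1 direction.

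**Figure D1:**
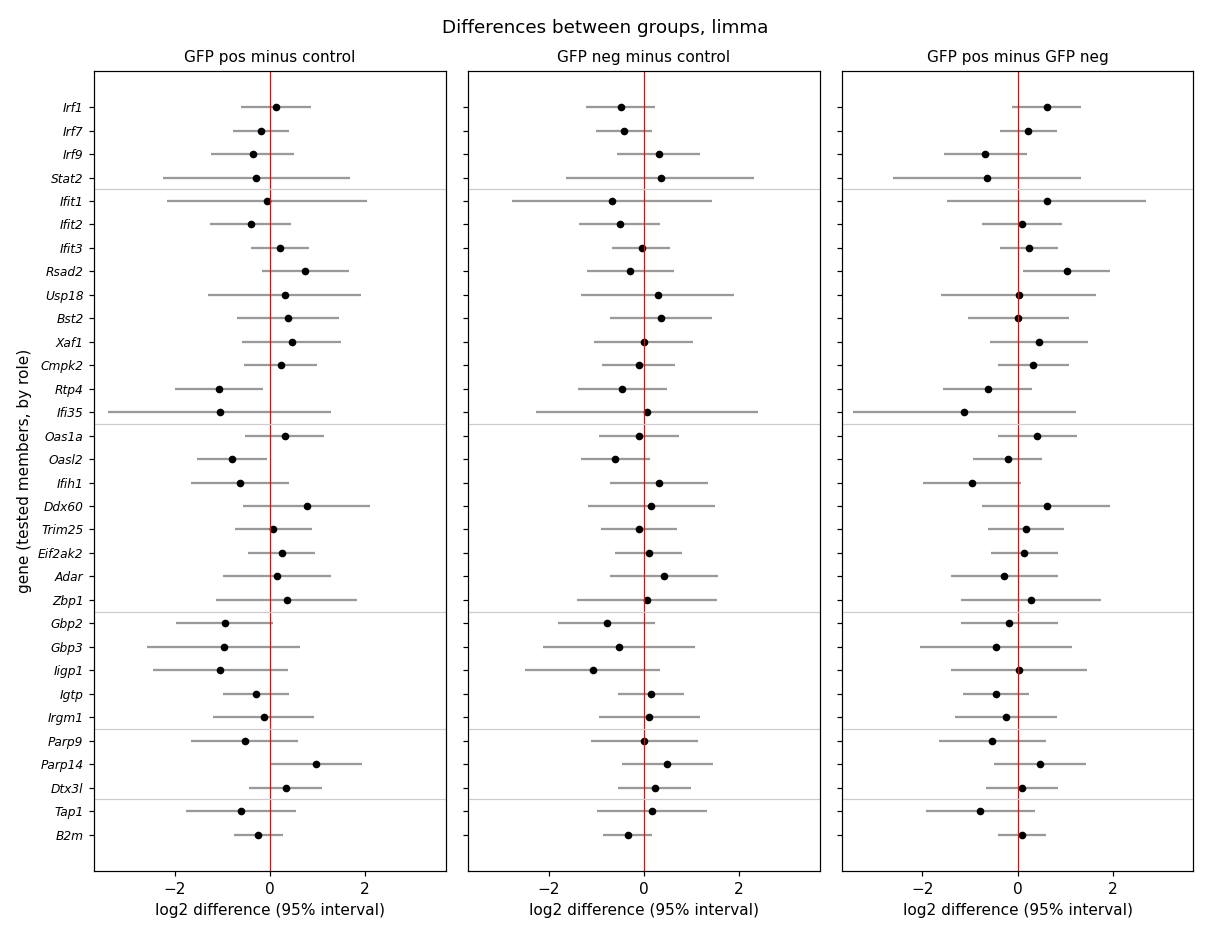
Log2 differences of the 32 tested members, with 95% limma intervals (lines), in GFP-positive minus control, GFP-negative minus control and GFP-positive minus GFP-negative cells; grey rules separate the roles in the order regulators, effectors, RNA sensing, GTPases, PARP group and MHC class I. Points lie on both sides of 0 in each panel, with medians of -0.098, 0.0032 and 0.062, and most intervals cross 0.

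Members varied widely between arrays of the same group. The residual SD within groups had a median of 0.59 over the members and 0.49 over all genes tested, and the range over 9 arrays was above 2 for 15 of 32 members (46.9%) against 32.9% of all genes. The arrays with the highest member medians came from different groups. The median member stood 0.29 above its own mean over 9 arrays on control 2, where 25 members were above their mean, and 0.26 above it on GFP-positive 3, where 24 were. All genes tested had medians of 0.029 and 0.052 on these arrays. GFP-positive 1, in contrast, had 8 members above their mean and a median of -0.20, so that the highest and the lowest array medians of the dnMPL arrays lay within the GFP-positive group. The 3 GFP-negative arrays were close to each other, at -0.096, 0.016 and 0.034. Control 1 held the highest value of 8 members (25.0%, against 13.5% of all genes). The array that stood apart among controls, control 3, held the lowest value of 7 (21.9%, near the 18.9% of all genes).

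**Figure D2:**
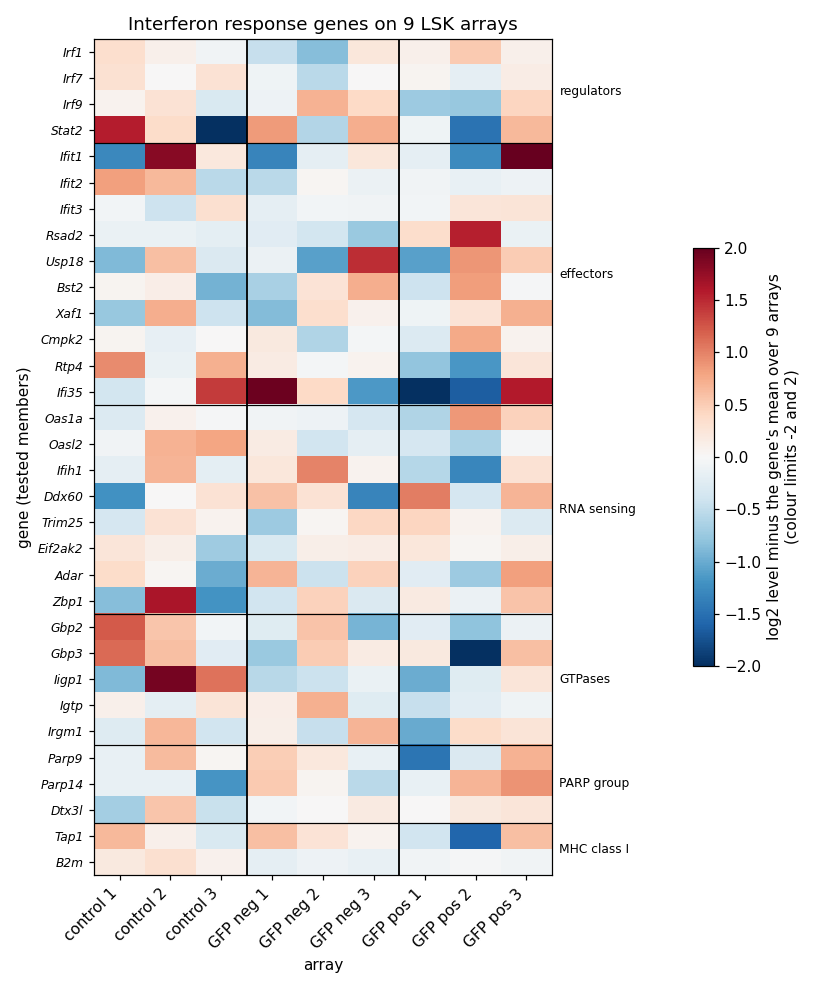
Level of each tested member on each array, as log2 level minus the gene's mean over the 9 arrays (red above, blue below, colours limited at -2 and 2), with members in rows by role and arrays in columns by group. Columns within a group differ from each other; control 2 and GFP-positive 3 hold the most members above their mean, 25 and 24 of 32.

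**Figure D3:**
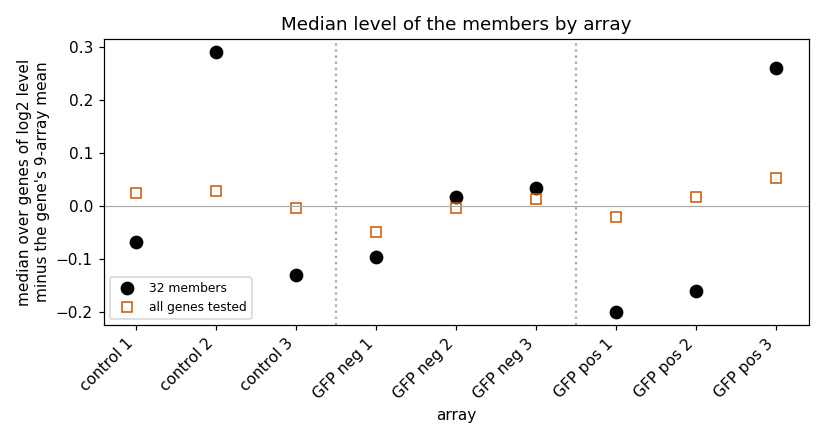
Median over the 32 members (filled circles) and over all genes tested (open squares) of the log2 level minus the gene's mean over 9 arrays, for each array, with dotted lines between the groups. The members' median was highest on control 2 (0.29) and GFP-positive 3 (0.26) and lowest on GFP-positive 1 (-0.20).

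Among the regulators, Stat2, Irf9, Irf1 and Irf7, GFP-positive cells had 1 gene higher and 3 lower than control and GFP-negative cells 2 and 2. Irf7, the transcription factor that amplifies type I interferon production, was 5.32, 5.02 and 5.31 on controls 1 to 3, 4.93, 4.47 and 5.02 on GFP-negative arrays and 5.07, 4.84 and 5.17 on GFP-positive arrays. GFP-negative values lay below all controls, but the nearest arrays of the groups, control 2 and GFP-negative 3, were practically tied at 5.02, and GFP-positive values overlapped both. The difference of GFP-negative cells from control was -0.41 ± 0.27 (SE; limma adjusted p = 0.92), and -0.24 without GFP-negative 2. Irf1, an activator of interferon gamma target genes, was 8.40, 8.17 and 8.00 on controls, 7.60, 7.21 and 8.29 on GFP-negative and 8.17, 8.59 and 8.17 on GFP-positive arrays. GFP-negative 1 and 2 were the lowest of the 9 arrays, while GFP-negative 3 was within the range of the others. GFP-positive cells differed from GFP-negative cells in Irf1 by 0.61 ± 0.33, by 0.37 without GFP-negative 2 and by 0.91 without GFP-negative 3.

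Irf9, the DNA-binding subunit of ISGF3, was 6.48, 6.69 and 6.10 on controls, 6.30, 7.10 and 6.80 on GFP-negative and 5.68, 5.65 and 6.83 on GFP-positive arrays. GFP-positive 1 and 2 lay below every other array and GFP-positive 3 did not. The difference between the dnMPL fractions was -0.68 ± 0.39 (limma adjusted p = 1.0). It was -1.07 without GFP-positive 3 and -0.48 without GFP-positive 2, an array that stood apart. Stat2, its partner, ranged from 3.62 on control 3 to 7.20 on control 1, so that the controls alone spanned the levels of all 9 arrays. The control mean was 5.60 ± 1.82 (SD, n = 3). A second Stat2 probe set spanned 4.15 on control 1, there the lowest array, to 5.16 on GFP-negative 3.

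The 10 tested effectors, which act on viral RNA, proteins or membranes or limit the response itself, had 6 members higher and 4 lower in GFP-positive cells and 3 higher and 7 lower in GFP-negative cells. Rtp4, a chaperone of receptor transport that interferon induces, was 7.77, 6.70 and 7.53 on controls, 6.99, 6.79 and 6.89 on GFP-negative and 6.04, 5.66 and 7.07 on GFP-positive arrays. GFP-positive 1 and 2 were below all other arrays, but GFP-positive 3 was above control 2. The difference from control was -1.08 ± 0.41 (limma adjusted p = 0.72), the smallest p of any member in this comparison. Without control 3 and GFP-positive 2 together it was -0.68, and a dimmer second probe set of Rtp4 gave -0.0093.

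Rsad2 encodes viperin, a radical SAM enzyme that makes a chain-terminating nucleotide against viral polymerases. It was at 7.19, 7.19 and 7.13 on controls, at 7.10, 6.96 and 6.58 on GFP-negative arrays and at 7.68, 8.87 and 7.19 on GFP-positive arrays. Every GFP-positive array lay above every GFP-negative array, and GFP-negative arrays lay below all controls. GFP-positive cells differed from GFP-negative cells by 1.03 ± 0.41 (limma adjusted p = 1.0) and from control by 0.74 ± 0.41. Without GFP-positive 2, an array that stood apart, these differences were 0.55 and 0.26. A second Rsad2 probe set gave 0.21 between the fractions and -0.29 against control.

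The IFIT proteins bind viral RNA that lacks the host's cap marks. Ifit1 was 3.30, 6.41 and 4.79 on controls, 3.26, 4.40 and 4.82 on GFP-negative and 4.40, 3.31 and 6.59 on GFP-positive arrays. High and low arrays occurred in each group, and Ifit1 was highest on control 2 and GFP-positive 3, the arrays with the highest member medians. Its group means were 4.83 ± 1.56, 4.16 ± 0.81 and 4.77 ± 1.67 (SD, n = 3 each). Ifit2 differed from control by -0.41 ± 0.38 in GFP-positive and -0.51 ± 0.38 in GFP-negative cells, and Ifit3 by 0.20 ± 0.27 and -0.048 ± 0.27. Usp18, the protease that removes ISG15 and restrains the receptor, was at 2.97 to 5.53 over the 9 arrays and differed from control by 0.29 ± 0.72 in GFP-negative cells. By its brightest probe set Ifi35 spanned 5.85 on GFP-positive 1 to 9.92 on GFP-negative 1, the widest range of any tested member. Its second and dimmest probe sets spanned only 6.12 to 7.13 and 5.45 to 7.05, with GFP-positive 1 at 6.38 and 6.36. Mx1 and Mx2, genes of the dynamin-like GTPase family, lay below the filter, at 2.81 to 4.18 and 1.55 to 2.43. Mx2 was at 2.31 to 2.43 on controls and 1.55 to 2.26 on the dnMPL arrays, without overlap, and was not tested at these low values. Oasl1, the remaining member below the filter, was at 2.52 to 3.08 on controls and 3.07 to 3.27 on GFP-negative arrays. On GFP-positive arrays Oasl1 was at 3.29 to 3.93, narrowly above both other groups, and was likewise not tested. How many genes below the filter separate in these ways was not counted.

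The 8 tested genes of RNA sensing and RNA-directed enzymes had 6 members higher and 2 lower in GFP-positive cells, and 5 and 3 in GFP-negative cells. Oasl2, a member of the oligoadenylate synthetase family, was 7.5, 8.27 and 8.36 on controls, 7.74, 7.20 and 7.40 on GFP-negative and 7.24, 6.94 and 7.55 on GFP-positive arrays. Controls 2 and 3 were above every dnMPL array, and control 1 was within their range. Oasl2 differed from control by -0.80 ± 0.32 in GFP-positive cells (limma adjusted p = 0.731) and -0.60 ± 0.32 in GFP-negative cells (limma adjusted p = 0.899), and by -0.70 ± 0.28 with the fractions taken jointly (limma adjusted p = 0.63). Without control 3 and GFP-positive 2 together the difference of GFP-positive cells was -0.49. The 95% intervals for Oasl2 over all arrays were -1.53 to -0.074 and -1.32 to 0.13 in the separate comparisons.

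Ifih1, the sensor MDA5 of long double-stranded RNA, was 5.93, 6.78 and 5.92 on controls, 6.33, 7.10 and 6.18 on GFP-negative and 5.53, 4.80 and 6.40 on GFP-positive arrays. GFP-positive 1 and 2 were the lowest arrays, and GFP-positive 3 was above 2 of the controls. The dnMPL fractions differed by -0.96 ± 0.46 (limma adjusted p = 1.0), or -0.57 without GFP-positive 2. Eif2ak2, the kinase PKR that halts translation on double-stranded RNA, differed from control by 0.24 ± 0.31 and 0.10 ± 0.31 in GFP-positive and GFP-negative cells. Adar, which edits adenosines in double-stranded RNA and keeps it from being sensed as foreign, differed by 0.43 ± 0.51 in GFP-negative cells. Its second and dimmest probe sets gave 1.32 and 1.33 there, and on the second the GFP-negative arrays (6.48 to 6.58) lay above all controls (4.66 to 5.88). Zbp1, a sensor of Z-form nucleic acids, was highest on control 2 (7.19), lowest on controls 1 and 3 (4.70 and 4.36) and between them, at 5.17 to 6.13, on the dnMPL arrays. A second Zbp1 probe set did not repeat this order: control 1 was highest (6.59), control 2 was at 5.11 and GFP-negative 1 was lowest (4.14).

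The GTPases restrict bacteria and parasites inside cells and are induced mainly by interferon gamma. All 5 had a lower point estimate in GFP-positive cells than in control (52.8% of all genes did), with a median of -0.96, and 0 of them passed limma. In GFP-negative cells 3 were lower and 2 higher, with a median of -0.52. The count of 5 was 4 without control 2, without GFP-positive 1 and, of 4 genes measured, 4 with the second brightest probe set. Gbp2, a guanylate-binding protein, was 7.31, 6.64 and 6.03 on controls, 5.83, 6.65 and 5.15 on GFP-negative and 5.86, 5.28 and 5.97 on GFP-positive arrays. GFP-positive arrays lay below all controls, narrowly so at GFP-positive 3 and control 3, while GFP-negative 2 was at the level of control 2. Gbp2 differed by -0.96 ± 0.45 in GFP-positive cells (limma adjusted p = 0.773) and -0.78 ± 0.45 in GFP-negative cells (limma adjusted p = 0.906). Without control 1 these differences were -0.63 and -0.45, and that of GFP-negative cells was -0.42 without GFP-negative 3 and -1.17 without GFP-negative 2. The second Gbp2 probe set gave -0.50 and -0.34. On it the groups overlapped, with control 3 (4.01) below every GFP-positive array (4.52 to 5.20).

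Iigp1, an immunity-related GTPase that attacks parasite vacuoles, was 4.77, 7.57 and 6.73 on controls, 5.09, 5.22 and 5.52 on GFP-negative and 4.65, 5.40 and 5.89 on GFP-positive arrays. Controls 2 and 3 were above all dnMPL arrays, and control 1 was lower than 5 of the 6. The difference of -1.08 ± 0.63 in GFP-negative cells was -0.48 without control 2 and -1.88 without control 1. Gbp3 was at 3.91 on GFP-positive 2 and at 5.41 to 7.28 on the other 8 arrays. Igtp and Irgm1 differed from control by -0.30 ± 0.31 and -0.13 ± 0.47 in GFP-positive cells.

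Parp9 and Dtx3l form a complex of an ADP-ribosyltransferase family protein and a ubiquitin ligase that strengthens the interferon response, and Parp14 is a related ADP-ribosyltransferase. Parp14 was 6.63, 6.63 and 5.59 on controls, 7.30, 6.82 and 6.23 on GFP-negative and 6.62, 7.45 and 7.67 on GFP-positive arrays. GFP-positive 2 and 3 were the highest arrays and control 3 the lowest. The difference from control was 0.96 ± 0.43 in GFP-positive cells (limma adjusted p = 0.768) and 0.61 without control 3, and a second probe set gave 0.38. Dtx3l differed by 0.33 ± 0.34 and Parp9 by -0.53 ± 0.50.

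Of the antigen presentation genes, B2m encodes the invariant light chain of MHC class I. By brightest probe sets it was the 1 tested member whose controls stood above all 6 dnMPL arrays. Such separation held for 3.56% of all genes in either direction and 1.96% in this direction. B2m was 13.18, 13.31 and 13.08 on controls, 12.81, 12.89 and 12.85 on GFP-negative and 12.92, 12.97 and 12.92 on GFP-positive arrays. GFP-negative arrays were below GFP-positive arrays as well, and the groups were tight, with SDs of 0.11, 0.041 and 0.026 (n = 3 each). The differences from control were small, -0.25 ± 0.23 in GFP-positive cells and -0.34 ± 0.23 in GFP-negative cells (limma adjusted p = 0.939 and 0.92). These SEs exceed the group SDs, since limma draws the variance of each gene toward that of all genes. A second B2m probe set, read on the same arrays, was at 12.95 to 13.19 on controls and 12.74 to 12.93 on the dnMPL arrays, again without overlap, while its difference between the dnMPL fractions had the other sign (-0.035). Tap1, a subunit of the peptide transporter that supplies MHC class I, was at 6.59 on GFP-positive 2 and at 7.80 to 8.83 on the other 8 arrays, and differed from control by -0.61 ± 0.51 in GFP-positive and 0.17 ± 0.51 in GFP-negative cells.

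**Figure D4:**
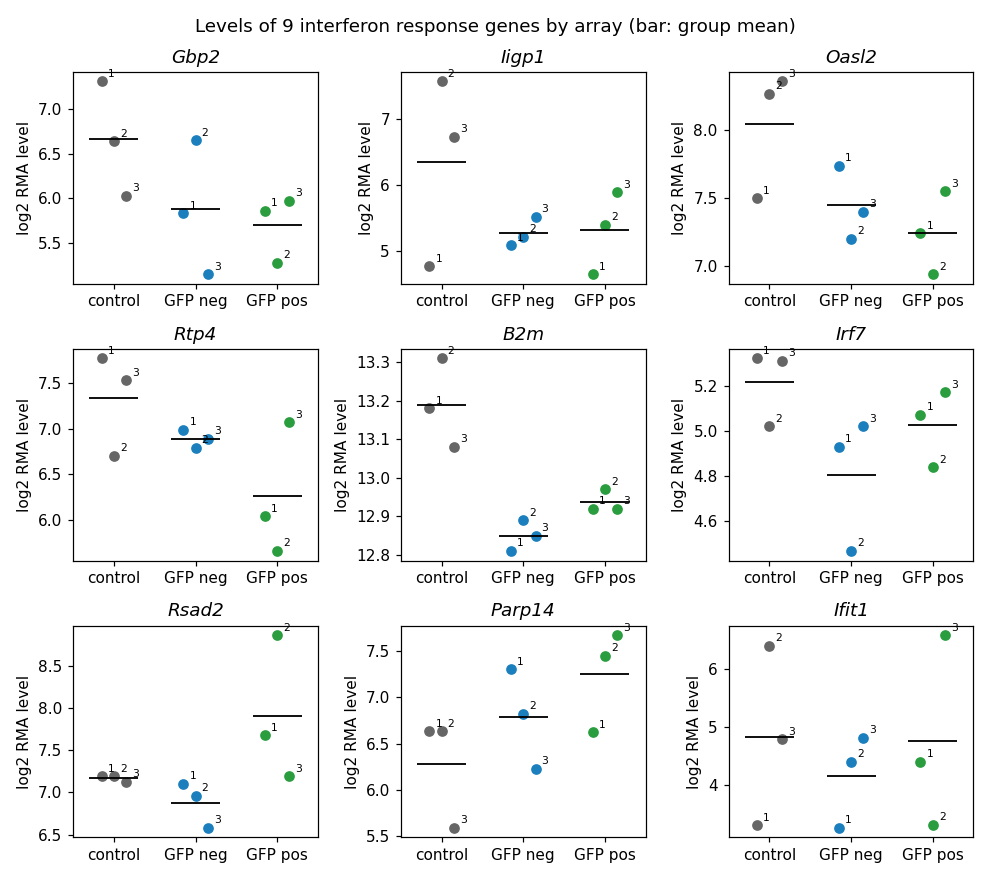
Log2 RMA level of 9 members on each array, in control (grey), GFP-negative (blue) and GFP-positive (green) groups, with the replicate number beside each point and a bar at the group mean; each panel has its own vertical axis, which does not start at 0. B2m is the panel in which all 3 controls lie above all dnMPL arrays (13.08 and above against 12.97 and below), and Ifit1 has high and low arrays in each group.

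Members with and without an ISRE core in the promoter window were set side by side. Of the 14 tested members with the core, 6 were higher and 8 lower in GFP-positive cells, with a median of -0.098, and of the 12 matched members without it 6 were higher and 6 lower, with a median of -0.061. In GFP-negative cells 7 of the 14 were higher, with a median of 0.026, and 5 of the 12, with a median of -0.053.

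Further genes of the pathway were described from a list of 94, of which 82 had a single-gene probe set and 73 were tested. In GFP-positive cells against control 28 were higher and 45 lower (61.6% lower, against 52.8% of all genes), with a median of -0.17 beside -0.028. In GFP-negative cells 31 were higher and 42 lower (57.5%, against 53.5% of all genes), with a median of -0.13 beside -0.038. None of the 73 passed limma in any comparison (adjusted p of 0.228 or more), and 9 in GFP-positive and 6 in GFP-negative cells had an unadjusted limma p under 0.05 against control, which 6.49% and 5.57% of all genes had. Groups did not overlap for 3 higher and 6 lower of the 73 in GFP-positive cells against control (8.61% of all genes in either direction). Counts were 4 higher and 7 lower in GFP-negative cells (11.4%), 2 and 3 between the fractions (6.4%), and 2 and 3 jointly (3.56%). The receptor and kinase genes were measured on all arrays. Ifnar1 stood at 6.75, 6.76 and 6.69 on controls, 6.72, 6.30 and 6.93 on GFP-negative and 7.49, 7.90 and 7.02 on GFP-positive arrays, so that each GFP-positive array was above the other 6. It differed between the fractions by 0.82 ± 0.30 (limma adjusted p = 1.0). The interferon genes Ifnb1, Ifna4 and Ifng lay below the filter on average, at 2.92 to 3.94, 1.91 to 3.30 and 1.86 to 2.53.

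Il15, a cytokine gene that interferons induce, was 6.28, 6.03 and 6.00 on controls, 4.91, 5.19 and 5.92 on GFP-negative and 3.76, 3.57 and 4.34 on GFP-positive arrays. The 3 groups did not overlap, and the difference between the fractions was -1.45 ± 0.34 (limma adjusted p = 1.0), and that between GFP-positive cells and control -2.21 ± 0.34 (limma adjusted p = 0.228). Dhx58, the RNA helicase LGP2 that tunes Ifih1, was at 3.93 to 4.41 on controls and 4.61 to 6.90 on the dnMPL arrays, and Irf8, a transcription factor of the myeloid lineage as well as of interferon targets, at 4.08 to 5.76 and 5.95 to 7.37. Both were higher on all 6 dnMPL arrays, by 1.77 ± 0.52 and 1.51 ± 0.45 jointly (limma adjusted p = 0.506 and 0.506). Of all 12398 genes, 198 were likewise higher without overlap and 243 lower. The erythroid marker sums given above were also higher on every dnMPL array than on controls. Granulocyte and monocyte sums were above all controls on GFP-positive arrays and overlapped them on GFP-negative arrays. Single monocyte and macrophage markers were mixed: of 7 tested, 4 were higher and 3 lower than control in each fraction. Their sum weighs most on the brightest gene, Lyz2, at 10.65 to 12.48 on GFP-positive arrays. Cd68, 1 of the 3 lower genes, was at 6.75 to 8.43 on controls and 6.63 to 6.67 on GFP-positive arrays. The part of these cell types in the levels of Dhx58 and Irf8 was not tested. Herc6, a ligase for ISG15 in the mouse, was at 6.52 to 8.01 on controls and 4.93 to 6.42 on the dnMPL arrays (-1.47 ± 0.42 jointly, limma adjusted p = 0.5). Trim34a differed by 0.94 ± 0.39 between GFP-positive and GFP-negative cells.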

How the data were processed

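Gene expression in 9 LSK samples was measured on Affymetrix mouse arrays after amplification of the RNA, per the labels' protocols. The authors deposited log2 expression values made with RMA (named in the submitters' processing notes, version not given in the sources used here). Its quantile step gives all arrays near-equal distributions, and its probe summary can leave arrays tied: 25.0% of the tested members and 29.8% of the genes tested had a shared value. Precision is limited by how many arrays there are. Of 45101 probe sets, 64 were controls, 34945 named 1 gene (34741 updated by Entrez number to RefSeq symbols), 932 several and 9160 none. Genes with a mean above the 40th percentile of non-control probe sets (4.03) were tested in limma 3.58.1 (R 4.3.3) over all 9 arrays, with Benjamini-Hochberg adjustment over 12398 genes and a threshold of 0.05. With 3 arrays a group, exact permutation p-values start at 0.1, so none are given. Marker sums are log2 of the summed linear signals.

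The members and lists were chosen with earlier results of these data known. Members given in full were the 5 with the smallest p in each comparison and those whose groups did not overlap. Members given with single values beyond these, such as Ifit1, Stat2, Ifi35, Gbp3, Zbp1 and Tap1, were described after their values were seen. Of other pathway genes, the 3 with the smallest p in each comparison were named. The interferon genes were added as ligands. Alternatives changed the filter, probe set, normalization, variance prior, array weights, arrays in the fit, block, threshold and arrays left out. The code was tested on simulated data. Figures were drawn with matplotlib 3.10.9.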

Additional observations from a re-analysis of the deposited data

How the results depend on the processing

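No member passed limma at an adjusted p under 0.05 under any of the 22 settings, nor at 0.1, in any comparison. The count of higher members and the median stayed within 1.5 times, or within the pooled SD of the array medians (0.20), in all settings except these. With both fractions set jointly against control, 9 members were higher with array weights and 9 of 30 with the second brightest probe set, against 14. In GFP-negative cells against control, leaving out single arrays gave 9 to 18 higher members and medians of -0.21 to 0.077, the lower ends without control 1. Leaving out single arrays gave medians of -0.27 to 0.073 in GFP-positive cells against control, -0.068 to 0.15 between the fractions and -0.20 to 0.11 jointly. Without control 3 and GFP-positive 2 together, 0 members were called, and 10 members were higher than control in GFP-positive cells and 11 in GFP-negative cells. Same-numbered arrays did not deviate together (correlations from -0.29 to 0.0994), so the numbers were not taken as pairs, and with the replicate number as a block 0 members were called and 15, 16 and 19 were higher in the pairwise comparisons. The alternative of fitting only the arrays compared gives no separate value for the joint comparison. The number of arrays and a median residual SD of 0.59 limit what could be detected.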

Other observations

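Several members had a second probe set above the filter, and these did not always give the sign of the brightest one. Of 15 such members, the signs were the same for 9 in GFP-positive cells against control, 11 in GFP-negative cells against control and 9 between the fractions. Ddx60, a helicase linked to RNA sensing, differed from control by 0.77 in GFP-positive cells by its brightest probe set and by -1.58 by the second. Cmpk2, a mitochondrial nucleotide kinase beside Rsad2 in the genome, differed between GFP-positive and GFP-negative cells by 0.33 and 1.42, and a second Adar probe set by -1.29 where the brightest gave -0.28. Trim25, the ubiquitin ligase of the RIG-I pathway, differed from control by 0.069 in GFP-positive cells by its brightest probe set and by -0.97 by its dimmest. These differences carry no test.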
